A study of Mus musculus with 6 samples.

Results

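The 10 genes followed here belong to the photoreceptor ribbon synapse and were traced through the maturation of the mouse retina. They are Slc17a7, Cplx3, Cplx4, Stx3, Cacna1f, Cacna2d4, Cabp4, Bsn, Pclo and Ctbp2. They were taken by gene symbol, 10 of the 30042 genes of the deposited table, for their place in the ribbon, the active zone, the calcium channel or the release machinery. The 6 libraries hold messenger RNA of whole retinas of wild-type mice with the strain label 129/Sv; C57/BL6J, 1 library from E16.5, before birth, and 1 from each of P1, P3, P7, P14 and P28, named by days of gestation or of life. The title of the series concerns mice lacking the deiodinases that activate or inactivate thyroid hormone, and only wild-type libraries were analysed here. Sex and any pooling of retinas are not stated. A difference between ages has no replicate check.

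Photoreceptors signal in the dark by releasing glutamate without pause, and their terminals hold a ribbon, a plate that tethers vesicles above the release site. Calcium enters there through an L-type channel that stays open at the membrane potential of a photoreceptor in darkness. Bipolar cells also have ribbon synapses, whereas amacrine cells mostly release from conventional synapses without a ribbon. Bassoon, Piccolo and several release proteins serve both kinds, and complexin 3 is also found in some amacrine cells, so a value from whole retina does not show which terminal a transcript served.

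The libraries hold an estimated 12744645 to 28806694 reads each. Those of E16.5, P1 and P28 share 1 form of library title and stand apart in lens transcripts. Lens markers summed to 30.6 RPKM before birth, 14.04 at P1 and 25.2 at P28, and to at most 1.05 in the other 3 libraries. Most of each of the larger sums was Cryaa, at 23.7, 13.0 and 20.7 RPKM. Cryaa, Crygd and Lim2 were higher in E16.5, P1 and P28 than in any other library, whereas Crygs and Bfsp2 were not. Of the 5 lens markers Cryaa, Crygd, Crygs and Lim2 were at 0 in at least 1 library.

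Levels are in RPKM, a read number corrected for gene length and library depth, a scale on which levels of different genes can be set side by side. Of the 10 genes, 9 rose with age, 0 fell and Bsn did not pass the test, a straight line over the order of the 6 ages fitted by limma across 15272 genes that reached 1 RPKM, as all 10 did. All 10 slopes were positive, so 0 fell at an unadjusted p under 0.05 as well. Over all tested genes 15.2% rose and 29.9% fell, 45.2% in either direction. That split moved with the scaling between libraries, from 2326 rising and 4571 falling genes to 3110 and 3396 after median-of-ratios rescaling, and all 10 ribbon synapse genes then rose. The median slope of the 10 genes was 0.86 log2 units per age step, against -0.06 over all tested genes. The 10 genes divided into a group with large differences, in which 7 genes were at least 10 times as high at P28 as at E16.5 (4.79% of tested genes were), and a group of the 3 scaffold genes Bsn, Pclo and Ctbp2, whose P28 levels were 1.31 to 3.22 times those at E16.5. In whole tissue more cells of a type and more RNA per cell cannot be told apart.

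**Figure D1:**
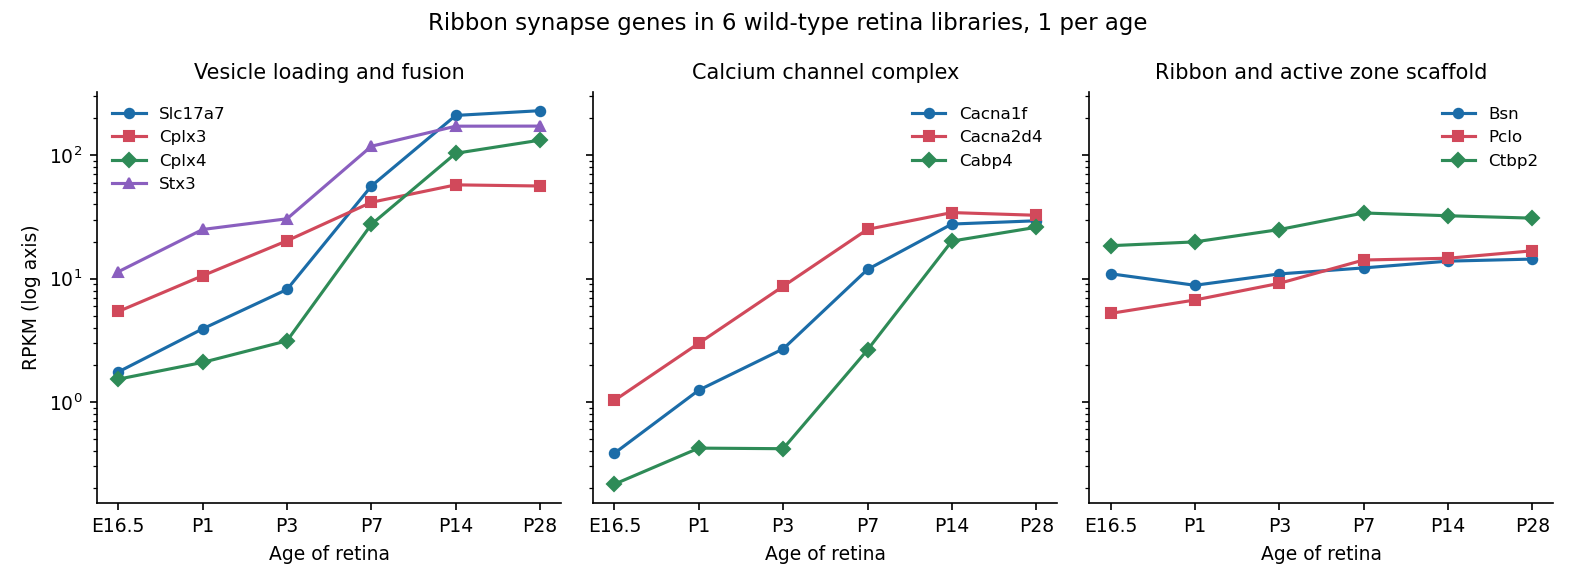
RPKM on a log axis against age for the 10 genes in 3 panels, 1 point per library and 1 library per age, so there are no error bars. Genes of vesicle loading, fusion and the calcium channel climb from P3 to P14, whereas Bsn, Pclo and Ctbp2 lie between 5.23 and 34.1 RPKM at every age.

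Slc17a7 (gene ID 72961) encodes the vesicular transporter that fills photoreceptor vesicles with glutamate. Its level was 1.75 RPKM at E16.5, 3.92 and 8.18 at P1 and P3, 56.4 at P7, and 210.6 and 230.2 at P14 and P28. Each library was higher than the one before, and the P7 value was 6.90 times that at P3. With a slope of 1.45 ± 0.13 log2 units per step (SE, adjusted p = 0.00148) it was the steepest of the 10, at percentile 99.94 of all tested slopes.

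Complexins clamp and promote the fusion of vesicles, and complexins 3 and 4 are the forms of retinal ribbon synapses. Cplx3 (gene ID 235415) came on early, with 5.42 RPKM at E16.5, 10.6 and 20.3 at P1 and P3, 41.6 at P7, and 57.6 and 56.4 at P14 and P28. Cplx4 (gene ID 225644) stayed low until P3 and then exceeded Cplx3, with 1.53 RPKM at E16.5, 2.09 and 3.13 at P1 and P3, 27.6 at P7, and 103.9 and 132.8 at P14 and P28. Its P7 value was 8.80 times that at P3, the widest such step among the 10 genes. As deposited, the ratio of the Cplx4 level to the Cplx3 level was 0.283 before birth, 0.155 at P3 and 0.662 at P7. It was 1.80 and 2.35 at P14 and P28, so the order of the pair turned between P7 and P14. The lower ratio at P3 than before birth rests on low Cplx4 values and was not tested. Both rose, Cplx3 with a slope of 0.68 ± 0.08 (adjusted p = 0.00163) and Cplx4 with 1.33 ± 0.15 (adjusted p = 0.00161).

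Stx3 (gene ID 20908) encodes syntaxin 3, the plasma membrane protein with which vesicles fuse in ribbon terminals. It was the most abundant of the 10 from P1 to P7 and had 11.4 RPKM at E16.5, 25.1 and 30.6 at P1 and P3, 118.5 at P7, and 172.3 and 172.6 at P14 and P28. The wide steps lay between E16.5 and P1 and between P3 and P7, and P14 and P28 were nearly equal. The rise passed with a slope of 0.83 ± 0.10 (adjusted p = 0.00165).

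Cacna1f (gene ID 54652) encodes the pore-forming subunit of the photoreceptor calcium channel, in which mutations cause a form of stationary night blindness in people. It was at 0.384 RPKM at E16.5, 1.25 and 2.69 at P1 and P3, 11.9 at P7, and 27.7 and 29.5 at P14 and P28, higher in each library than in the one before. Cacna2d4 (gene ID 319734), the extracellular α2δ subunit of the channel, ran ahead of it, with 1.03 RPKM at E16.5, 2.99 and 8.67 at P1 and P3, 25.1 at P7, and 34.3 and 32.7 at P14 and P28. Cabp4 (gene ID 73660), the calmodulin-like protein that shifts the opening of the channel to lower voltages, came last, with 0.216 RPKM at E16.5, 0.423 and 0.418 at P1 and P3, 2.64 at P7, and 20.2 and 26.1 at P14 and P28.

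All 3 channel genes rose, with slopes of 1.00 ± 0.09 for Cacna1f (adjusted p = 0.00148), 0.89 ± 0.10 for Cacna2d4 (adjusted p = 0.00164) and 1.01 ± 0.15 for Cabp4 (adjusted p = 0.00259). As deposited, the ratios of Cabp4 to Cacna1f and of Cacna1f to Cacna2d4 were lowest at P3 and highest at P28. With 1 library per age and low early values, the age of the lowest ratio is not resolved. The Cabp4 level was 0.562 of the Cacna1f level before birth, 0.339 and 0.155 of it at P1 and P3, 0.223 at P7, and 0.728 and 0.886 at P14 and P28. That of Cacna1f was 0.373 of the Cacna2d4 level before birth, 0.417 and 0.311 at P1 and P3, 0.473 at P7, and 0.807 and 0.902 at P14 and P28. The early Cabp4 values rest on few reads, an estimated 4 at E16.5, 8 at P1 and 14 at P3. The 95% Poisson intervals overlap and cover counting error only. They are 0.0526 to 0.494 RPKM at E16.5, 0.189 to 0.863 RPKM at P1 and 0.225 to 0.689 RPKM at P3. At P7 an estimated 89 reads give an interval of 2.13 to 3.26 RPKM, above all of these. Exons of Cabp4 overlap those of Gpr152 on the opposite strand, and whether strand was used in counting is not given.

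Bsn (gene ID 12217) and Pclo (gene ID 26875) encode Bassoon and Piccolo, giant scaffold proteins of the active zone, of which Bassoon anchors the ribbon to the membrane. Bsn varied little, with 10.96 RPKM at E16.5, 8.84 and 10.9 at P1 and P3, 12.2 at P7, and 13.9 and 14.4 at P14 and P28, a slope of 0.11 ± 0.05 (adjusted p = 0.0958). Its call depended on the setting: it passed with median-of-ratios rescaling (adjusted p = 0.0285), with a common total without the 50 highest genes (0.0175) and without E16.5 (0.0469). Pclo rose, with 5.23 RPKM at E16.5, 6.72 and 9.16 at P1 and P3, 14.2 at P7, and 14.6 and 16.8 at P14 and P28 (slope 0.32 ± 0.05, adjusted p = 0.00262). The Pclo level was 0.477 of the Bsn level before birth and 1.16 and 1.17 at P7 and P28. Exons of Bsn overlap those of Gm47303 on the same strand, and exons of Pclo those of Gm26918 and Gm26954 on the opposite strand.

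Ctbp2 (gene ID 13017) gives rise to RIBEYE, the main protein of the ribbon, and to CtBP2, a corepressor of transcription found in many tissues. It was at 18.5 RPKM at E16.5, 19.9 and 25.01 at P1 and P3, 34.1 at P7, and 32.4 and 30.96 at P14 and P28, with its highest value at P7 as deposited and at P28 after median-of-ratios rescaling (32.9 at P7 and 35.4 at P28). The rise was shallow (slope 0.17 ± 0.05, adjusted p = 0.0346). It was not called without E16.5 (adjusted p = 0.124), P1 (0.0837), P3 (0.0558) or P14 (0.0981), nor with age in log2 days (0.0928). Exons of Ctbp2 overlap those of Fgfr2 on the same strand in GENCODE, and reads there cannot be assigned from the table. The deposited table has 1 value for the gene, so reads of the ribbon form and of the corepressor form cannot be told apart. In the GENCODE annotation of GRCm38, a transcript that starts inside the gene codes for 988 residues, and a transcript that starts farther upstream codes for 445.

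The windows of 250 bases before both RefSeq starts of Ctbp2 are shown because the long transcript begins beside the inner one. The transcript for 445 residues begins at base 133123367, upstream of the outer window, so that window does not describe its promoter. Those of Cplx3 and Cacna1f are shown as genes of the large rise whose windows held a motif other than TATAAA. Coordinates are on GRCm38.p6, the build of the RefSeq table, and the expression values were made on mm9. Each sequence reads 5′ to 3′ along the gene. Capitals mark matches, on either strand, to TAATCC (the Crx and Otx homeodomain motif), TGCTGAC (the core of the Nrl motif), AGGTCA (the core motif of nuclear receptors) or TATAAA.
Ctbp2 inner start, chr7:133015248-133015497, minus strand: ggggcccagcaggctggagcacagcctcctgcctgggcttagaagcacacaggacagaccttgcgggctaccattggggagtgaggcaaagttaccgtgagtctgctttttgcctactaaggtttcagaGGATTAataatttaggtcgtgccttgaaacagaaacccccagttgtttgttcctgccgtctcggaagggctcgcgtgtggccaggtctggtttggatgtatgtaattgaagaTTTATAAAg
Ctbp2 outer start, chr7:133081861-133082110, minus strand: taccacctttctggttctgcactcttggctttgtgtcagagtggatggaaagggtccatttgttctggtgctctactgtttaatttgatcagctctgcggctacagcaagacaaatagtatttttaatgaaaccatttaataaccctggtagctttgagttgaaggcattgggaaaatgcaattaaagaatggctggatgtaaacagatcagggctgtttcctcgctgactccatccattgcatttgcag
Cplx3, chr9:57606282-57606531, minus strand: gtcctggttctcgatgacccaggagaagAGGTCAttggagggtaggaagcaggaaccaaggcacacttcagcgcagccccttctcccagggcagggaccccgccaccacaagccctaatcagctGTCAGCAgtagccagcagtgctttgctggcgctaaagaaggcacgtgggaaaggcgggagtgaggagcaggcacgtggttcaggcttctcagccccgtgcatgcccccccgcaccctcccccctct
Cacna1f, chrX:7606853-7607102, plus strand: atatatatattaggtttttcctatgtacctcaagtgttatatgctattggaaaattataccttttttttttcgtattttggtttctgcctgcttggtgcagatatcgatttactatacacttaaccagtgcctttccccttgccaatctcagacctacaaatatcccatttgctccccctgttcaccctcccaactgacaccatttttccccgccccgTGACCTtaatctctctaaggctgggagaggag

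The window at the inner start of Ctbp2 held TAATCC on the reverse strand, beginning 121 bases before the start, and overlapping TATAAA matches on both strands next to the start. The outer window held none of the 4 motifs. Cplx3 had AGGTCA 222 bases and TGCTGAC on the reverse strand 126 bases before its start, and Cacna1f had AGGTCA on the reverse strand 32 bases before it. Of 8 windows found for 7 of the 10 genes, 4 held at least 1 of these motifs, the other being that of Stx3 with TATAAA. The windows of Slc17a7, Bsn and Pclo held none. Among all 32851 windows of this length, TAATCC was in 6.25%, TGCTGAC in 3.81%, AGGTCA in 14%, TATAAA in 12.4% and any of the 4 in 31.3%. A match of letters is a description of the window and does not show binding.

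In these 6 libraries the genes neared their highest value at different ages. At P3 Cplx3 stood at 35.2% of its highest value, Cacna2d4 at 25.2%, Stx3 at 17.7%, Cacna1f at 9.14%, Slc17a7 at 3.55%, Cplx4 at 2.36% and Cabp4 at 1.60%. At P7 the order was nearly the same, with Cacna2d4 at 73.1%, Cplx3 at 72.2%, Stx3 at 68.7%, Cacna1f at 40.3%, Slc17a7 at 24.5%, Cplx4 at 20.8% and Cabp4 at 10.1%. By P14 each of the 10 genes was at 77.3% or more of its highest value. Cacna2d4 and Cplx3 differed at P7 by less than a percentage point, and their order is not resolved. With 1 library per age the rest of the order has no replicate check either.

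**Figure D2:**
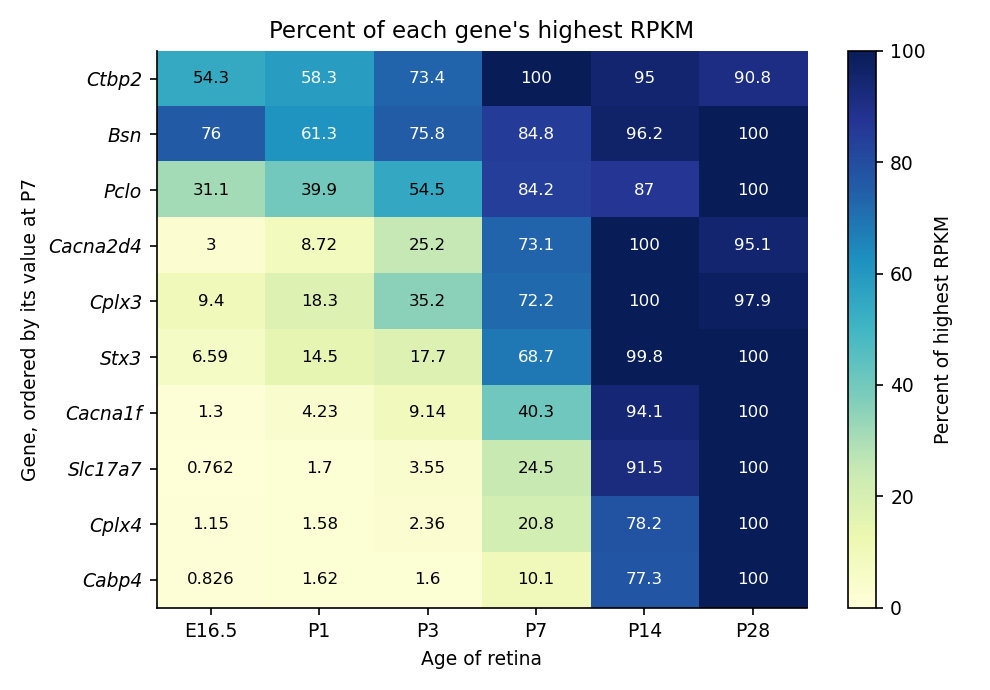
RPKM of each gene as a percent of its own highest value, genes in rows ordered by their P7 value and ages in columns, 1 library per age. Ctbp2, Bsn and Pclo are above 50% by P3, Cacna2d4, Cplx3 and Stx3 pass that level by P7, and Cacna1f, Slc17a7, Cplx4 and Cabp4 by P14.

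Steps were taken on log2(RPKM + 1), where the added 1 shrinks steps between low values. They span unequal times and were not divided by days. The steps from P1 to P3 and from P14 to P28 also compare libraries with different forms of title. The widest step in log2(RPKM + 1) lay between P3 and P7 for 8 of the 10 genes. It lay between P7 and P14 for Cabp4 and between P1 and P3 for Bsn. In plain RPKM the steps of Cacna2d4 were nearly equal. They were 2.907 times from E16.5 to P1, 2.896 from P1 to P3 and 2.895 from P3 to P7. Those of Cplx3 were 1.95, 1.92 and 2.051 times. Among all genes that rose, 29.4% had their widest step between P3 and P7 and 37.6% between P7 and P14. From P3 to P7, 7 of the 10 genes were higher by at least 1 log2 unit, against 2.36% of tested genes (3.54% were lower). From P7 to P14 these were 4, namely Slc17a7, Cplx4, Cacna1f and Cabp4, against 2.92% (2.4% were lower). From E16.5 to P1 it was Stx3 alone among the 10 on that scale (1.05% of tested genes higher, 2.23% lower). From P1 to P3 it was Cacna2d4 alone (1.94% higher, 3.52% lower). Without the added 1, Cacna1f, Cacna2d4 and Slc17a7 also passed 1 log2 unit from E16.5 to P1, at 3.248, 2.907 and 2.235 times. Cacna1f and Slc17a7 also did so from P1 to P3, at 2.159 and 2.087 times. From P14 to P28 none of the 10 differed by that much in either direction (1.19% higher and 0.53% lower among tested genes). None of the 10 was lower by that much at any of the 5 steps. Slc17a7, Cplx4, Stx3, Cacna1f and Pclo were higher at every one of these steps, 5 genes of the 10 against 2.67% of tested genes. Between E16.5 and P28 the number higher by at least 1 log2 unit was 8, all except Bsn and Ctbp2, and none was lower (11.3% higher and 21.9% lower among tested genes). These differences compare single libraries and have no test.

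Of the 7 ribbon synapse genes placed in a gene family, all except Cplx3 were its most abundant transcript at P28, among the family genes listed here. For these 7 the level was compared with the other genes of the family as a percent of the summed RPKM of the family in the same library, a measure that scaling between libraries does not alter. None of the 6 families was led by a ribbon synapse gene at E16.5 or P1. A ribbon synapse gene led 1 of them at P3 and 3 at P7, then 5 at P14 and all 6 at P28. The percent rose with age order for all 7 genes, by exact permutation tests, two-sided, adjusted over 14 relations, with r between 0.91 and 0.98.

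The share of Slc17a7 among the vesicular glutamate transporters was 21.3% at E16.5, 39.9% and 64.7% at P1 and P3, 89.4% at P7, and 94.2% and 95.9% at P14 and P28 (r = 0.96, exact permutation p = 0.00278, adjusted 0.00486; rho = 1, the same p values). This p is the smallest that 6 libraries allow. Slc17a6, the transporter of ganglion cells, was at 6.41 RPKM at both E16.5 and P7 and at 7.63 at P28 (slope 0.11, adjusted p = 0.229). Slc17a8, the transporter of a class of amacrine cells, rose to 2.35 RPKM at P14 and 2.13 at P28 (slope 0.36, adjusted p = 0.0115, and 0.0594 without P28).

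Among complexins, Cplx3 and Cplx4 together held 9.70% before birth, 20.4% at P3 and 36.5% at P7, with 68.5% and 74.2% at P14 and P28. The share of Cplx4 alone went from 2.14% to 52.1% (r = 0.91, exact permutation p = 0.00556, adjusted 0.00864; rho = 0.94, p = 0.0167, adjusted 0.0167). That of Cplx3 went from 7.56% to 22.1% (r = 0.91, exact permutation p = 0.00833, adjusted 0.0106; rho = 0.94, p = 0.0167, adjusted 0.0167), and was not called without E16.5 (adjusted exact permutation p = 0.0636). Cplx2, a complexin of conventional synapses, was at 45.8 RPKM at E16.5, 103.7 at P7 and 32.1 at P28, and Cplx1 was at 18.9, 16.9 and 33.8 RPKM at these ages. Neither passed the test of a straight line (adjusted p 0.574 and 0.0680).

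The calcium channel α1 family as listed here had 7 genes, Cacna1a to Cacna1f and Cacna1s, without Cacna1g, Cacna1h and Cacna1i. Cacna1f held 2.27% of the summed level of these 7 genes at E16.5, 8.73% and 15.2% at P1 and P3, 40.3% at P7, and 56.2% and 65.9% at P14 and P28 (r = 0.98, exact permutation p = 0.00278, adjusted 0.00486; rho = 1, the same p values). Cacna1b, the presynaptic N-type channel, led until P3 and went from 9.10 RPKM before birth to 4.13 at P28 (slope -0.13, adjusted p = 0.105). Cacna1a of the P/Q-type channel was between 3.60 and 6.98 RPKM (adjusted p = 0.235). Cacna1d, an L-type channel found in hair cells and in neurons, passed with a slope of 0.19 (2.20 RPKM at E16.5, 6.26 at P14, 4.12 at P28, adjusted p = 0.0377). It did not pass without E16.5 (adjusted p = 0.160), P1 (0.0818), P3 (0.0563), P7 (0.0532) or P14 (0.109), nor with age in log2 days (0.103) or every gene above 0 kept (0.0650). Cacna1s rose to 1.24 RPKM (adjusted p = 0.0219, but 0.0591 without P1 and 0.0622 without P14; without P28 it reached no more than 0.611 RPKM and was not tested), Cacna1e reached 1.18 RPKM (adjusted p = 0.615) and Cacna1c, at most 0.864 RPKM, was not tested.

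Cacna2d4 held 10.3% of the α2δ transcripts at E16.5, 20.8% and 41.1% at P1 and P3, 60.9% at P7, and 65.3% and 73.0% at P14 and P28 (r = 0.98, exact permutation p = 0.00278, adjusted 0.00486; rho = 1, the same p values). Cacna2d2, which led until P3, lay between 5.81 and 11.6 RPKM (adjusted p = 0.210), and Cacna2d1 between 2.38 and 4.83 RPKM (adjusted p = 0.509). Cacna2d3 rose, with 0.516 RPKM before birth and 2.50 and 1.59 at P14 and P28 (slope 0.22, adjusted p = 0.0196). That call was lost without E16.5 (0.0662), P1 (0.0570) or P14 (0.0565) and with age in log2 days (0.0543).

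Cabp4 held 2.68% of the CaBP transcripts at E16.5, 4.75% and 3.68% at P1 and P3, 12.3% at P7, and 33.1% and 42.3% at P14 and P28 (r = 0.92, exact permutation p = 0.00833, adjusted 0.0106; rho = 0.94, p = 0.0167, adjusted 0.0167). Without P28 the share of Cabp4 was not called (adjusted exact permutation p = 0.0583). In this family other genes rose as well. Cabp5, a marker of bipolar cells, rose from 0.328 RPKM before birth to 25.96 at P14, where it led the family, and was at 16.8 at P28 (slope 0.88, adjusted p = 0.00203). Cabp1 rose from 5.20 to 14.7 RPKM (slope 0.28, adjusted p = 0.00255) and Cabp2 from a listed 0 to 2.37 RPKM (slope 0.39, adjusted p = 0.00352), while Cabp7 lay between 1.28 and 2.29 RPKM (adjusted p = 0.866).

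Ctbp2 held 26.0% of the CtBP pair at E16.5, 32.3% and 34.2% at P1 and P3, 47.5% at P7, and 59.1% and 60.5% at P14 and P28 (r = 0.97, exact permutation p = 0.00278, adjusted 0.00486; rho = 1, the same p values). Ctbp1, the other corepressor of the pair, fell from 52.6 RPKM before birth to 20.2 at P28 (slope -0.27 ± 0.06, adjusted p = 0.0105). The fall of Ctbp1 was not called with a common total without the 50 highest genes (adjusted p = 0.0593) or without P28 (0.0605). Over the 17 tested family genes that are not ribbon synapse members, 7 rose, 1 fell and 9 did not pass, and their median slope was 0.11. Without E16.5 and P28, the ages at the ends of the series, r of the family shares lay between 0.887 for Cabp4 and 0.996 for Cplx3.

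**Figure D3:**
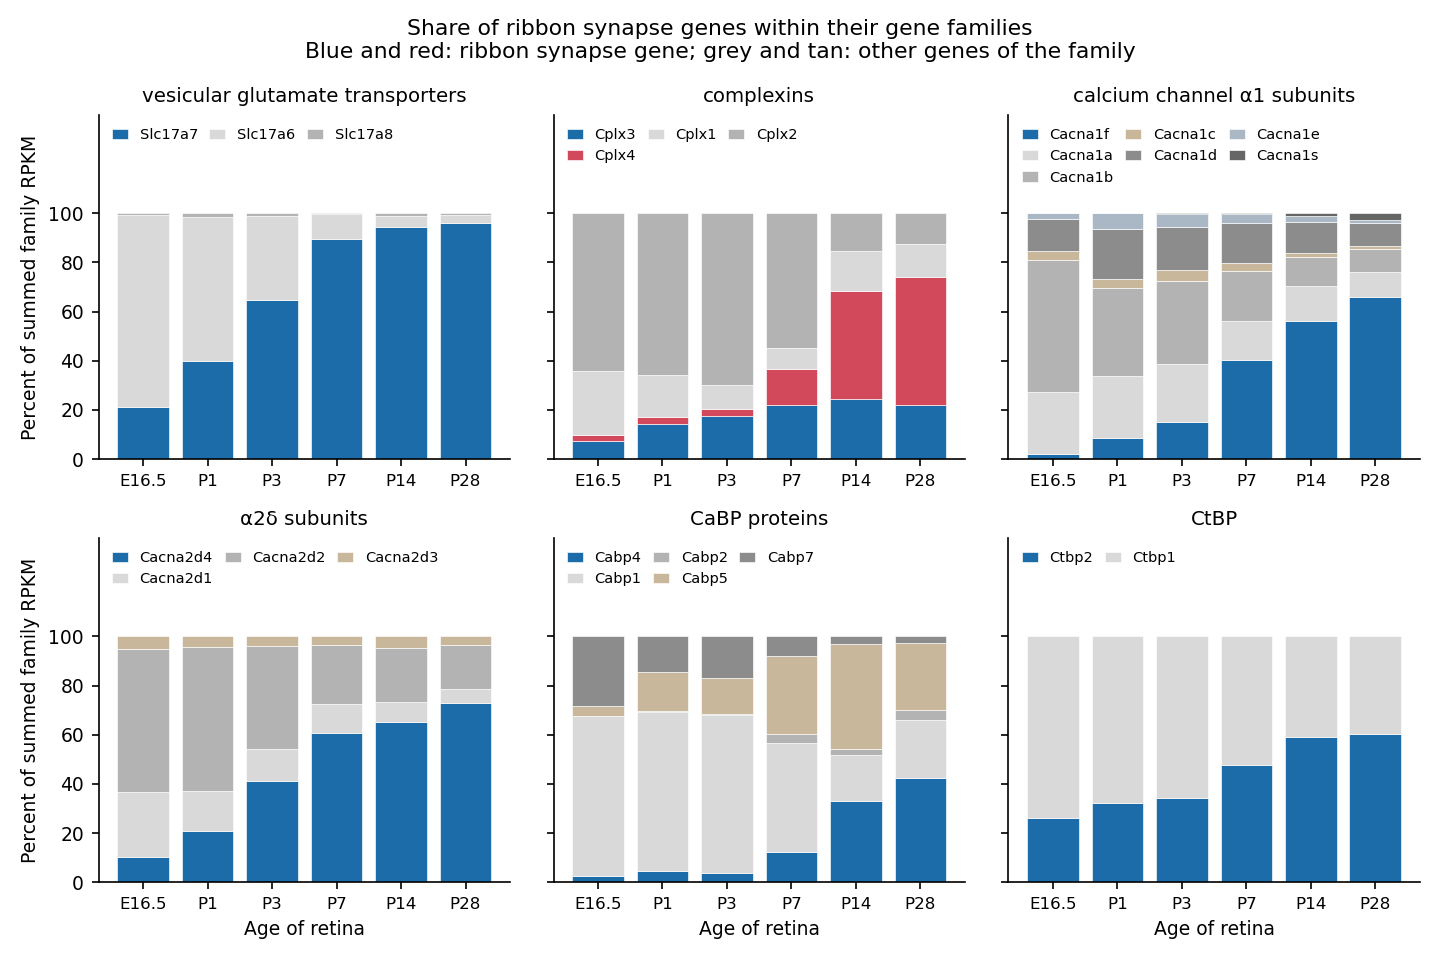
Stacked percent of summed family RPKM against age for 6 gene families, 1 library per age, with the ribbon synapse genes in blue and red at the base and the other genes in grey and tan. The coloured share is larger at P28 than at E16.5 in each panel and reaches 95.9% for Slc17a7 and 42.3% for Cabp4 at P28.

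Genes that work beside these 10 were examined as a list of 65 partners of the photoreceptor terminal and its contacts, all of which were tested. Of them 48 rose (73.8%), 3 fell (4.62%) and 14 did not pass, and the median slope was 0.40, against 15.2% rising, 29.9% falling and a median slope of -0.06 over all tested genes. After rescaling, which moved the split of all genes as given above, 51 to 52 partners rose and 2 to 3 fell. By role, 8 of 14 scaffold and priming genes rose, 6 of 9 channel and calcium genes, 13 of 16 vesicle and fusion genes, 8 of 10 genes of the synaptic cleft, 9 of 11 postsynaptic genes of ON bipolar cells and 4 of 5 genes of the horizontal cell contact. The last 2 groups act on the other side of the synapse. The list was chosen with earlier results of these data known, so its counts beside those of all genes are a description.

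Of the 8 partners with the steepest rise, 4 were listed as postsynaptic genes of ON bipolar cells, whose receptor cascade inverts the photoreceptor signal. All 4 had their lowest value at P3 and were higher from P7 on, and all except Lrtm1 were lower at P28 than at P14. Grm6, the glutamate receptor of these cells, was at 0.138 RPKM at P3 and 28.4 at P7, with 48.5 and 31.8 at P14 and P28 (slope 1.28 ± 0.25, adjusted p = 0.00614). Trpm1, the cation channel of the cascade, was at 0.186, 4.59, 24.6 and 17.1 RPKM at these ages (slope 0.92 ± 0.19, adjusted p = 0.00717). Gpr179, a membrane anchor of the cascade, was at 1.01, 13.2, 28.0 and 24.3 RPKM (slope 0.93 ± 0.16, adjusted p = 0.00366), and Lrtm1 at 0.190, 1.08, 33.7 and 36.7 RPKM (slope 1.138 ± 0.23, adjusted p = 0.00710).

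The other 4 act in the photoreceptor or at the cleft. Mpp4, a scaffold of photoreceptor terminals, rose from 1.35 RPKM before birth to 24.6 at P7, with 78.5 and 54.7 at P14 and P28 (slope 1.104 ± 0.13, adjusted p = 0.00164). Unc119, a lipid-binding trafficking protein abundant in photoreceptors, rose from 15.9 RPKM before birth to 311.0 at P28 (slope 0.96 ± 0.09, adjusted p = 0.00148). Lrit1 and Lrit2, transmembrane proteins with leucine-rich repeats, rose from 1.69 RPKM before birth to 57.5 at P28, below 79.1 at P14 (slope 1.05 ± 0.13, adjusted p = 0.00191) and from 1.91 to 62.4 RPKM (slope 0.94 ± 0.06, adjusted p = 0.00148).

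The 3 partners that fell were Cacnb3, Dag1 and Erc1. Cacnb3, a β subunit of calcium channels, fell from 64.1 RPKM before birth to 25.6 at P1, reaching 8.67 at P28 (slope -0.48 ± 0.07, adjusted p = 0.00232). Cacnb2, the β subunit found with the photoreceptor channel and singled out here after its values were seen, rose from 0.389 RPKM before birth to 14.6 at P28 (slope 0.82 ± 0.09, adjusted p = 0.00161). Dag1, which encodes dystroglycan of the synaptic cleft and of glial end-feet, fell from 37.2 to 12.6 RPKM (slope -0.29 ± 0.05, adjusted p = 0.00475). Its ligand Egflam, also named after its values were seen, encodes pikachurin and rose (3.98 RPKM before birth, then 29.3 at P7 and 19.2 at P28, adjusted p = 0.0197). Erc1, an active zone protein of many tissues, fell from 5.81 to 1.93 RPKM (slope -0.21 ± 0.05, adjusted p = 0.0172), a call lost without P28 (0.135) and with a common total without the 50 highest genes (0.102).

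**Figure D4:**
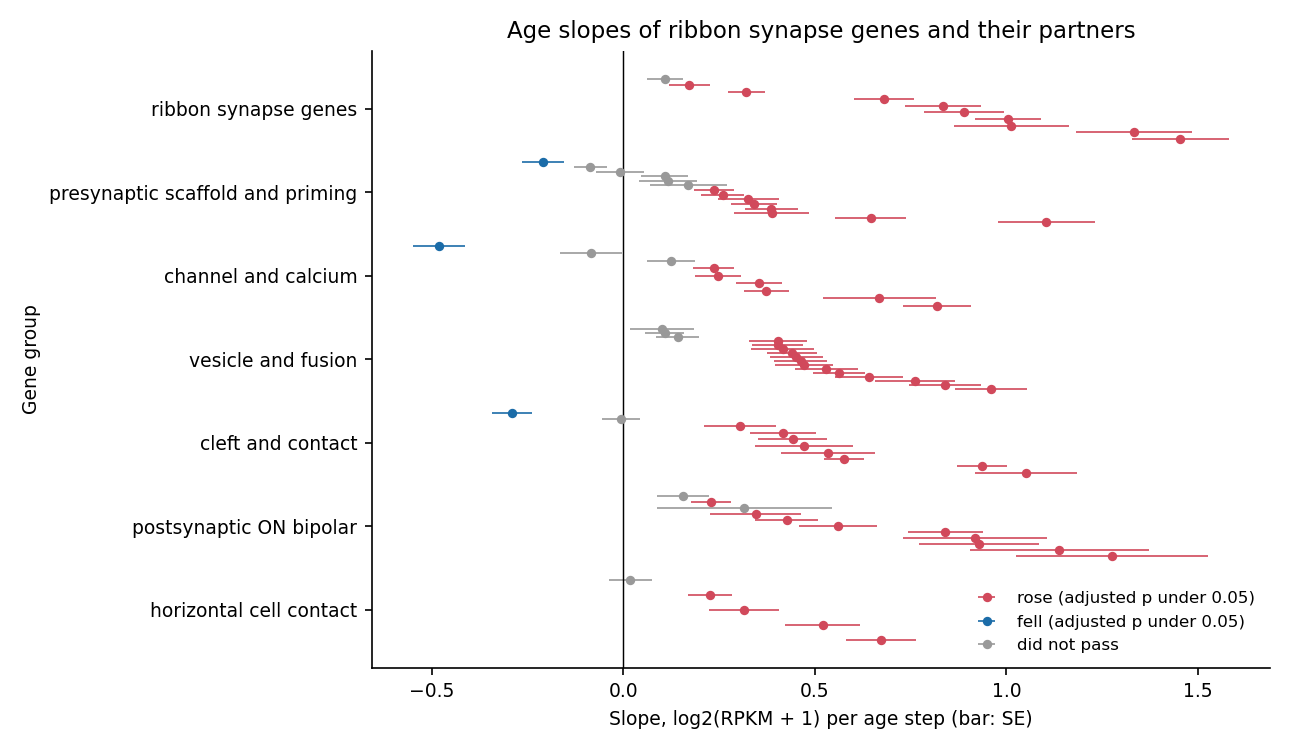
Age slope in log2(RPKM + 1) per age step with its SE for the 10 ribbon synapse genes and the 65 partner genes by role, 1 point per gene. Of the 10 genes 9 rose, and of the 65 partners 48 rose and 3 fell.

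The summed level of 10 rod markers was 155.6 RPKM before birth, 216.2 at P3 and 1133 at P7, with 6727 and 8899 in the P14 and P28 libraries, and all 10 rose. Gnb1 made up most of the early sums, with 110.3 RPKM at E16.5 and 134.9 at P3. At E16.5 it stood at 15.2% of its P28 level, and the other rod markers at no more than 0.993%. Of 8 cone markers 6 rose, with a sum between 19.8 and 265.9 RPKM. Of 8 bipolar markers 6 rose, with a sum between 92.2 and 269.7 RPKM, and of 6 measured amacrine markers 4 rose, with a sum between 66.5 and 116.7 RPKM. The bipolar list holds Cabp5, Grm6 and Trpm1, which are described above. No marker of these 4 lists was at 0 in any library. Of 5 Muller glia markers 3 rose, with a sum of 96.7 RPKM before birth and 366.4 at P28, and of 8 ganglion cell markers 1 rose and 4 fell, with a sum of 699.3 and 251.3 RPKM at these ages. All 4 tested markers of the pigment epithelium rose, from a sum of 2.31 RPKM over the 6 measured to 36.96, with Mlana at 0 in at least 1 library. The 3 erythroid markers summed to 130.9 RPKM before birth and to between 2.29 and 13.7 RPKM afterwards, and none of them was called. Their part in the rise of the ribbon synapse genes was not tested.

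Within the E16.5, P1 and P28 libraries 9 of the 10 genes were higher from E16.5 to P1 to P28, all except Bsn, and within P3, P7 and P14 9 of the 10 again, all except Ctbp2. The shares of all tested genes that do so were not counted, so these counts have no background and are a description. All 7 family shares were higher from E16.5 to P1 to P28 and from P3 to P7 to P14. The rod genes stood at E16.5 at a median of 0.550% and at P1 at 0.956% of their P28 values. The same measure was 0.762% and 1.70% for Slc17a7 and 0.826% and 1.62% for Cabp4. With the rod medians applied to the P28 value of each gene and subtracted, E16.5 values were 0.487 RPKM for Slc17a7, 0.801 for Cplx4, 0.222 for Cacna1f and 0.0721 for Cabp4. The P28 value was then 473 times that of E16.5 for Slc17a7 instead of 131, 166 instead of 86.7 for Cplx4, 133 instead of 76.7 for Cacna1f and 362 instead of 121 for Cabp4. With Cacna2d4 then at 0.851 RPKM at E16.5, the lowest ratio of Cacna1f to Cacna2d4 lay at E16.5 instead of P3. That of Cplx4 to Cplx3 lay at P1 instead of P3, with 0.824 RPKM for Cplx4 and 10.03 for Cplx3 at P1. The same 9 genes rose with that subtraction. It can only lower the E16.5 and P1 values, so steeper slopes and larger folds follow from it, and it is no check on the rise. Where the early rod transcripts come from was not tested.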

How the data were processed

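Retinal RNA of wild-type mice was sequenced by the authors in 6 libraries, 1 per age; per the labels' protocols, bead-purified messenger RNA was made into double-stranded cDNA and then into libraries with an Illumina ChIP DNA kit. The deposited values are RPKM, per the file headers. The build mm9 and bcl2fastq 2.17.1.14 are named, per the submitters' processing notes; aligner, counter, annotation and strand were not given in the sources used. In GENCODE M21 exons of Bsn, Pclo, Cabp4 and Ctbp2 overlap those of other genes, whose reads could be mixed with theirs.

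From the deposited RPKM, log2(RPKM + 1) was fitted over age order 1 to 6 with limma 3.58.1 (R 4.3.3, eBayes with trend), two-sided, Benjamini-Hochberg over the 15272 genes that reached 1 RPKM in any library, threshold 0.05, 4 residual degrees of freedom; p-values measure spread around the line between libraries, not between retinas. The fit was tested on simulated data with independent noise and straight slopes, which does not check curved courses or scaling between libraries. Depth, read from steps between values under 0.3 RPKM and GENCODE transcript lengths (66.4% to 68.9% of such values whole within 0.05), was an estimated 12744645 to 28806694 reads; no count test was run. Poisson intervals are 95%. A planned family comparison is not reported here. The text names all members and genes of the other families, the 8 steepest rising and all falling partners, and the 8 genes with the most similar pattern. Members and lists were chosen with earlier results of these data known. Alternatives were the pseudocount (0.1), the filter (none or 5 RPKM), 2 rescalings, age in log2 days, the variance prior, a title term, trace subtraction and leaving out each library. Sequences are from RefSeq, GRCm38.p6, with windows found for 7 of the 10 genes and none printed for Cplx4. No column of sample values was left unused.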

Additional observations from a re-analysis of the deposited data

How the results depend on the processing

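The number of ribbon synapse genes that rose, 9, was 10 under both rescalings, 8 with age in log2 days and 8 to 9 when each library was left out. None fell in any of these fits. Partners that rose numbered 43 to 48 and those that fell 2 to 3 when each library was left out, and 43 to 52 rose and 2 to 3 fell in the other fits. Over all tested genes the count that rose went from 2326 to 1403 with a filter of 5 RPKM, where fewer genes are tested, and to between 1538 (without P14) and 2179 when each library was left out. The count that fell went from 4571 to 2668 with a common total without the 50 highest genes, and to between 2953 (without P14) and 4247 when each was left out; the cause was not tested. The split moved with the scaling, with 3110 up and 3396 down after median-of-ratios rescaling and 3293 up and 2668 down with the common total. The median difference of all tested genes between P28 and E16.5 was -0.29 log2 units as deposited, -0.07 and 0.05 after these rescalings. Family shares were repeated as a log2 ratio to the other genes, with age in log2 days, with trace subtraction and without each library, and all 7 passed in each except 6 without E16.5 (Cplx3, exact permutation p adjusted 0.0636) and 6 without P28 (Cabp4, exact permutation p adjusted 0.0583). Of 150 repeats of the member slopes 142 kept their call and none reversed. No paired analysis was possible because each age has 1 library. Depth limits Cabp4 before P7.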

Other observations

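The genes whose pattern over the 6 libraries was most like the mean standardised profile of the 10 ribbon synapse genes were Klhl18, Gm11744, Gucy2e, Ndrg3, 5730408K05Rik, 5430411C19Rik, Cngb1 and Scn8a, with Pearson's r of log2(RPKM + 1) between 0.9978 and 0.9995. Klhl18, an adaptor of a ubiquitin ligase, was at 6.002 RPKM before birth, 35.5 at P7 and 64.0 at P28. Gucy2e, a guanylate cyclase of photoreceptors, went from 0.451 to 21.8 and 62.2 RPKM at these ages, and Cngb1, a subunit of the rod channel gated by cyclic GMP, from 0.162 to 17.3 and 37.7. Ndrg3 was at 4.84, 20.7 and 31.1 RPKM, Scn8a, a voltage-gated sodium channel, at 5.37, 10.002 and 12.008, and 5430411C19Rik reached no more than 2.40 RPKM. Of the 15262 other tested genes, 114 (0.747%) had an r of at least 0.99 with that profile. All points share the same 6 libraries and their scaling, so the likeness is a description. Among the 10 genes themselves r between pairs ran from 0.756, for Cabp4 with Ctbp2, to 0.999, for Slc17a7 with Cacna1f, with a median of 0.956 over 45 pairs.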
